A study of Mus musculus with 6 samples.

Results

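The mitogen-activated protein kinase (MAPK) phosphatases Dusp1, Dusp2, Dusp4, Dusp5, Dusp6, Dusp8, Dusp10 and Dusp16 were followed in cultured mouse hepatocytes exposed to tumour necrosis factor alpha (TNFα), an inflammatory cytokine. Every probe that the array platform's annotation assigns to one of these 8 genes was taken, which gave 19 of the 45281 probes on the array; the annotation names 19057 genes. The cells were primary hepatocytes from the livers of male C57Bl/6J mice, on collagen in medium that held 5% fetal calf serum, 50 nM dexamethasone (a synthetic glucocorticoid) and 1 nM insulin in all groups. There were 3 groups of 2 single-colour Illumina arrays each: untreated cells, cells with 2 ng/mL recombinant murine TNFα for 2 hours, and cells with the same dose for 2 days. The labels state neither the time that untreated cells spent in culture nor the source of the replicates (animals or cultures). Exposure and time in culture therefore cannot be told apart at 2 days, and the spread behind the p-values is that among arrays and may be technical.

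MAPKs are activated when a MAPK kinase phosphorylates a threonine and a tyrosine in their activation loop. The dual-specificity phosphatases remove both phosphates and so switch the kinase off. Members differ in location and substrate: Dusp1, Dusp2, Dusp4 and Dusp5 are nuclear, Dusp6 is cytoplasmic and prefers the extracellular signal-regulated kinases (ERK), and Dusp8, Dusp10 and Dusp16 act mainly on the Jun N-terminal kinases (JNK) and p38. TNFα activates JNK, p38 and ERK in hepatocytes, and several of these phosphatases are themselves transcribed in response to MAPK signalling.

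No phosphatase probe passed the test as higher after 2 hours of TNFα. Dusp1, Dusp4 (on 2 of its 4 probes) and Dusp10 fell at that time, to between 0.587 and 0.665 of the untreated level on the 5 probes that passed the test. At 2 days Dusp1 was still lower, Dusp10 was not called against untreated cells, and Dusp4 was 1.42-fold higher on 1 of its 4 probes. Dusp8, not called at 2 hours, fell at 2 days on both of its probes. Dusp5 was lower at 2 days than at 2 hours, while Dusp2 lay near the array background throughout. After background correction, calls against untreated cells stayed only for Dusp4 at 2 hours and for 1 Dusp8 probe at 2 days.

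The sequences shown are the 250 bases upstream of the annotated transcript start of Dusp1, Dusp10 and Dusp8, whose every probe changed against untreated cells at one of the times, together with Dusp5, where a different motif matched. They are RefSeq sequences of build GRCm38.p6 (7 of the 8 genes matched, Dusp4 not) and are written 5′ to 3′ on the gene's strand, with every motif match in capitals.
Dusp1 (chr17:26508473-26508722, minus strand): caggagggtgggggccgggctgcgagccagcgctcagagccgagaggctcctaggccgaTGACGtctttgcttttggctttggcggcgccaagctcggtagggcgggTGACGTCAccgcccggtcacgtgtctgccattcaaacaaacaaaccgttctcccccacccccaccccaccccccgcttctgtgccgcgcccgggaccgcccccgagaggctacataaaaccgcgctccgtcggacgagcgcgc
Dusp10 (chr1:184034131-184034380, plus strand): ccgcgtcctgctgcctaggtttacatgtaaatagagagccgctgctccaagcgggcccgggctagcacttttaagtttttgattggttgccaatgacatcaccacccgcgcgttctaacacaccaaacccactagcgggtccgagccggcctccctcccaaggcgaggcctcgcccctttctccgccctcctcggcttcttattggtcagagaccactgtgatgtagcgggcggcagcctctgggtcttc
Dusp8 (chr7:142095285-142095534, minus strand): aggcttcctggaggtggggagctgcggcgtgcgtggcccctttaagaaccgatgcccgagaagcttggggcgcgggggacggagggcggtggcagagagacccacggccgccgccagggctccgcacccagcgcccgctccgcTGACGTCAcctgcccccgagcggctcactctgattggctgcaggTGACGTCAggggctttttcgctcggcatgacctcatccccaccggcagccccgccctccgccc
Dusp5 (chr19:53528895-53529144, plus strand): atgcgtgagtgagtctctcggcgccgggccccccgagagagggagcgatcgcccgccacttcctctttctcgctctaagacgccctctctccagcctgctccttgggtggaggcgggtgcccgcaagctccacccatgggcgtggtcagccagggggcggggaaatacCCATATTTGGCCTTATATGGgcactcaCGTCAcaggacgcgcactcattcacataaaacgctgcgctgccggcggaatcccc
Both strands were searched for the full cyclic AMP response element (CRE) TGACGTCA, its core TGACG, the AP-1 site TGANTCA, the glucocorticoid receptor hexamer AGAACA, the NF-κB consensus and the CArG box of serum response factor (SRF). Each full CRE holds a pair of overlapping cores. Dusp1 held a full CRE 143 to 136 bases before the start and a separate core from 191 to 187. Dusp8 held 2 full CREs, from 107 to 100 and from 63 to 56 bases before the start. Dusp5 held 2 adjacent CArG boxes, from 82 to 73 and from 72 to 63, and a CRE core on the other strand. Dusp10 had no match to any of the 6 motifs, nor did Dusp2 or Dusp6, and Dusp16 held a CRE core alone. Among the 32851 RefSeq upstream windows of this length, 1.55% held a full CRE, 17.8% a core and 1.47% a CArG box. AP-1, glucocorticoid and NF-κB matches stood in 6.75%, 16.1% and 7.25% of these windows and in 0 of the 7 matched phosphatase windows. A match is a description of the letters and not evidence of binding.

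**Figure D1:**
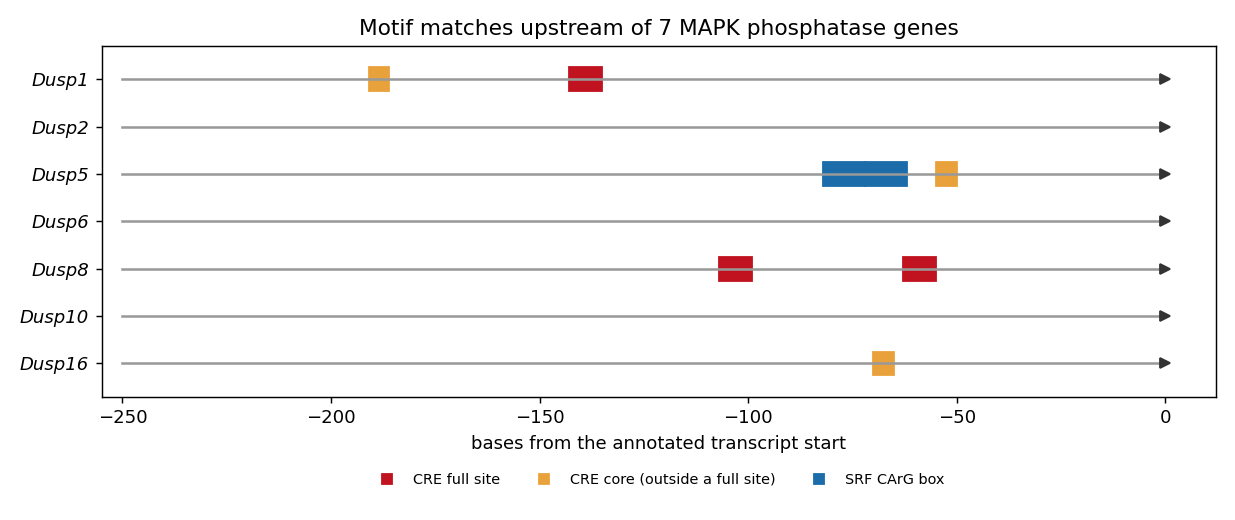
Positions of motif matches in the 250 bases upstream of 7 MAPK phosphatase genes, with the distance from the annotated transcript start in bases on the x axis and 1 gene per line. Coloured boxes stand for full CREs, CRE cores outside a full CRE and CArG boxes; Dusp1 and Dusp8 hold full CREs and Dusp5 holds 2 adjacent CArG boxes.

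Intensities are on the deposited linear scale, in arbitrary units that still include the background (array medians of 143.16 to 143.22), and are given as mean ± SD (n = 2). Because background remains, changes of dim probes are understated. Tested were the 26272 probes, 18 of them for phosphatases, that stood above the array median on 2 or more arrays. A change was called at an adjusted p under 0.05 (limma, Benjamini-Hochberg over all tested probes). Changes are differences of the groups' mean log2 intensities, with the standard error (SE). Fold and percent changes were derived from these and not from the linear means. The known TNFα targets chosen as a check responded, with 6 of 7 genes higher at 2 hours and 6 at 2 days, among them Cxcl1 (3.98 at 2 hours, SE 0.10) and Icam1 (3.56, SE 0.10). Birc3, whose tested probe read near the array median, was not called. In a whole culture, fewer cells of a type and less RNA per cell cannot be told apart.

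Of the 18 tested phosphatase probes 5 were called lower and 0 higher at 2 hours, which is 27.8% of them, against 1.89% of all tested probes (0.651% lower and 1.24% higher). At an unadjusted limma p under 0.05 these were 8 probes, of which Dusp5 alone was higher. At 2 days 4 were lower and 1 higher, again 27.8%, against 9.63% of all tested probes (4.67% lower and 4.96% higher). Between the times 9 differed, 6 higher and 3 lower at 2 days than at 2 hours, or 50%, against 11.6% (6.09% higher and 5.49% lower). The 9 include the Dusp6 probe ILMN_2701321, which passed the filter through the 2 day arrays alone; without it 8 of 17 differed (47.1%), 5 of them higher. Probes of 1 gene are not independent, so counts were also made by gene with at least 1 called probe. These were 3, 4 and 5 of 8 genes (4 in the last comparison without that Dusp6 probe), against 2.87%, 13.6% and 16.5% of the 13438 named genes tested. The same shares apply to the gene counts of the other lists below. The median change of the 18 probes was -0.11 at 2 hours and -0.09 at 2 days, where that of all tested probes was -0.00785 and -0.00112.

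**Figure D2:**
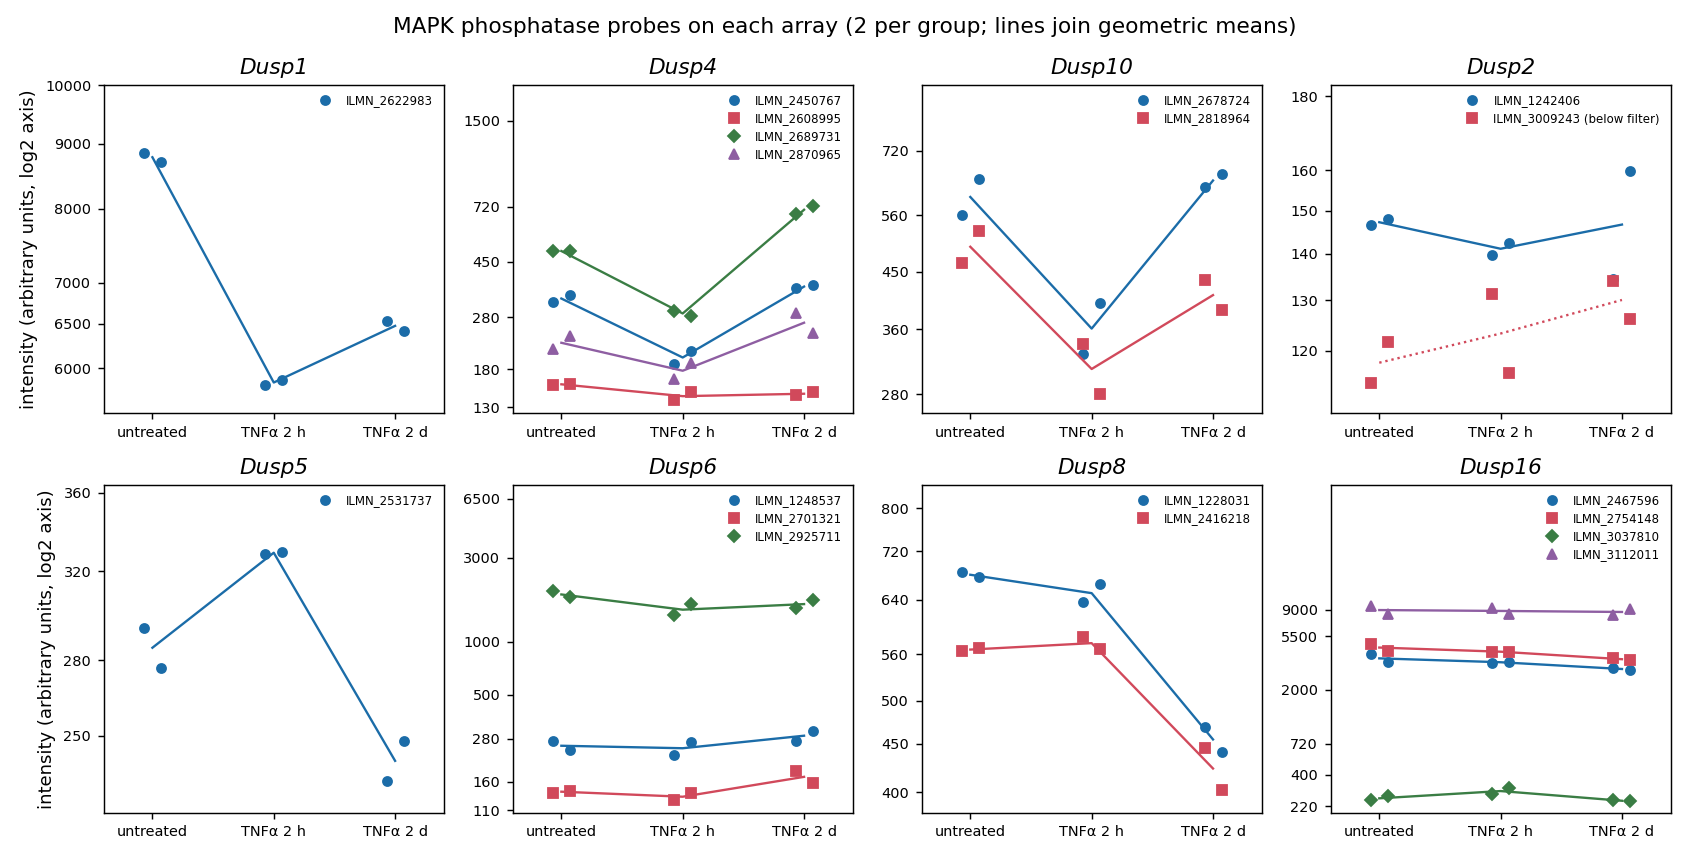
Intensity of every MAPK phosphatase probe on each array (log2 axis, arbitrary units), by group in time order: untreated, TNFα for 2 hours and TNFα for 2 days. Points are the 2 arrays of a group, lines join their geometric means, colours mark probes, and the dotted line is the Dusp2 probe below the filter; the 2 hour arrays are lowest for Dusp1, for Dusp10 and for 3 Dusp4 probes, and the 2 day arrays are lowest for Dusp8.

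Dusp1, a nuclear phosphatase of p38, JNK and ERK that is itself induced by stress and by glucocorticoids, has 1 probe (ILMN_2622983). Its intensities were 8856 and 8711 in untreated cells, 5822 and 5868 after 2 hours, and 6536 and 6414 after 2 days. Both arrays of each TNFα group lay below both untreated arrays, and the 2 hour arrays lay below the 2 day arrays. The mean was 5845 ± 32.2 at 2 hours against 8783 ± 102 untreated, so the level fell by 33.5% (log2 change -0.59, SE 0.09, limma adjusted p = 0.000462). At 2 days the mean was 6475 ± 86.5 and the level fell by 26.3% against untreated cells (-0.44, SE 0.09, limma adjusted p = 0.00279). The difference between the 2 times was not called (0.15, 95% interval -0.05 to 0.34, limma adjusted p = 0.41). Both calls against untreated cells were lost after normexp background correction at nearly the same size, -0.60 and -0.45 (limma adjusted p = 0.233 and 0.161).

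All groups received dexamethasone, so a list of genes inducible by glucocorticoids was counted beside Dusp1. The list also held Nr3c1, the gene of the glucocorticoid receptor itself. Of its 11 tested genes, 2 were lower on at least 1 probe and 1 was higher at 2 hours by limma. At 2 days 8 were lower and 0 higher by limma (also 8 and 0 at an unadjusted p under 0.05). The tested probes of Nr3c1 and Pck1 read near the array median. The median change over their 15 probes was -0.12 at 2 hours and -0.48 at 2 days, against -0.00785 and -0.00112 over all probes. Sgk1, a kinase of ion transport, changed by -1.01 at 2 hours and -1.57 at 2 days, and Tsc22d3, which encodes a glucocorticoid-induced leucine zipper protein, by -1.02 and -0.66 on the probe with the largest fall at 2 hours. The other probes of Tsc22d3 gave -0.44 and 0.08 at 2 hours. Mt2, a metallothionein that binds metal ions, was called higher at 2 hours (0.49) and lower at 2 days (-1.16). Fkbp5, a co-chaperone of the glucocorticoid receptor, and the transcription factor Klf9 were not called at 2 hours (-0.08 and 0.11) and were lower at 2 days (-1.39 and -0.68). Their part in the fall of Dusp1 was not tested.

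Dusp2, a nuclear phosphatase best known from activated blood cells, has a pair of probes, both dim. The first (ILMN_1242406) gave 146.5 and 148 in untreated cells, 139.8 and 142.5 at 2 hours, and 134.6 and 159.9 at 2 days. It exceeded the array median on 3 of 6 arrays, and the 2 day arrays spanned the values of both other groups. Neither comparison with untreated cells was called, with intervals of -0.27 to 0.15 at 2 hours and -0.22 to 0.21 at 2 days. The second probe (ILMN_3009243), at 113.9 to 134.1, stayed below the array median on every array and was not tested. Of 9 lymphocyte and neutrophil markers on the array 6 did not pass the filter, among them Ptprc, Cd3g and Cd8a, and of the 3 others 0 were called by limma at either time (0 also at an unadjusted p under 0.05). The summed intensity of these 9 was 1187 to 1268 at 2 hours and 1242 to 1250 at 2 days, against 1231 to 1245 in untreated cells.

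Dusp4, a nuclear phosphatase of ERK and JNK, has 4 probes. On the brightest (ILMN_2689731) the intensities were 492.6 and 494.7 in untreated cells, 294.7 and 284.5 at 2 hours, and 678.4 and 727.2 at 2 days. The 3 groups did not overlap, with the 2 hour arrays lowest and the 2 day arrays highest. At 2 hours this probe fell by 41.3% (-0.77, SE 0.10, limma adjusted p = 1.38e-05), and at 2 days it rose 1.42-fold (0.51, SE 0.10, limma adjusted p = 0.000742). The 2 day level was 2.43-fold that at 2 hours (1.28, SE 0.10, limma adjusted p = 1.45e-09). After normexp the rise at 2 days was 0.60 and no longer called (limma adjusted p = 0.076), and the fall at 2 hours stayed called at -1.02.

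The other Dusp4 probes gave the same order of groups on 2 of 3. ILMN_2450767 read 319.9 and 338.2 in untreated cells, 188.3 and 209.7 at 2 hours, and 358.6 and 370 at 2 days. Its fall at 2 hours was called (-0.73, SE 0.10, limma adjusted p = 4.64e-05, and -1.15 after normexp), and its change at 2 days was not (0.15, 95% interval -0.06 to 0.35). ILMN_2870965 read 213.3 and 238.1, then 166.1 and 189.7, then 291.8 and 245.2 in the same order of groups. Neither change of that probe against untreated cells was called (-0.34 and 0.25), but the 2 day level was higher than that at 2 hours (0.59, SE 0.11, limma adjusted p = 0.000498). The dimmest probe, ILMN_2608995, lay between 138.4 and 159.1 on all arrays, close to the array median, and was not called in any comparison.

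Dusp5, a nuclear phosphatase selective for ERK, has 1 probe (ILMN_2531737). It read 294 and 276.8 in untreated cells, 328.5 and 329.5 at 2 hours, and 233.6 and 248.2 at 2 days. The groups did not overlap, and the 2 hour arrays were highest and the 2 day arrays lowest. Against untreated cells neither the 2 hour change (0.21, 95% interval 0.01 to 0.41, limma adjusted p = 0.471) nor the 2 day change (-0.24, 95% interval -0.45 to -0.04, limma adjusted p = 0.134) was called. The 2 day level was 0.732 of that at 2 hours (-0.45, SE 0.10, limma adjusted p = 0.00232). After normexp that difference was -0.67 and narrowly not called (limma adjusted p = 0.052).

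Dusp6, the cytoplasmic ERK phosphatase and a feedback gene of that pathway, has 3 probes that disagreed in sign at 2 days. The brightest (ILMN_2925711) read 1933 and 1789 in untreated cells, 1416 and 1639 at 2 hours, and 1562 and 1719 at 2 days. Both TNFα groups lay below the untreated arrays and overlapped each other, and no change was called (-0.29, 95% interval -0.50 to -0.07 at 2 hours, and -0.18, 95% interval -0.40 to 0.03 at 2 days). ILMN_1248537 read 272.2 and 241, then 227.6 and 270, then 273.9 and 311.5, and was not called either (0.19 at 2 days). ILMN_2701321 read 138.3 and 142.2 in untreated cells, 125.6 and 137.3 at 2 hours, and 184.3 and 157.6 at 2 days. This last probe was called higher at 2 days than at 2 hours (0.38, SE 0.10, limma adjusted p = 0.0164). It passed the filter through the 2 day arrays alone, so a difference was built into its selection. The call was also lost without replicate 1 of the 2 hour group (0.31), without replicate 1 of the 2 day group (0.26) and after normexp (0.98, limma adjusted p = 0.0525).

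Dusp8, a phosphatase of JNK and p38, has a pair of probes that moved together. ILMN_1228031 read 684.5 and 675.7 in untreated cells, 636.5 and 664.2 at 2 hours, and 468.4 and 441.6 at 2 days. Both 2 day arrays lay far below the other 4, whose range was narrow. The 2 day mean was 455 ± 18.9 against 680.1 ± 6.26 untreated, and the level fell by 33.1% (-0.58, SE 0.10, limma adjusted p = 0.00017, and 0.0491 after normexp). The 2 hour change was -0.06 (95% interval -0.26 to 0.13). ILMN_2416218 read 563.9 and 569.1 in untreated cells, 583.7 and 567.4 at 2 hours, and 446 and 402.5 at 2 days, and fell by 25.2% at 2 days (-0.42, SE 0.10, limma adjusted p = 0.00549). The call of that second probe was lost without replicate 2 of the 2 day group (-0.35, limma adjusted p = 0.108) and after normexp (-0.52, limma adjusted p = 0.129). Between the times the probes differed by -0.52 and -0.44 (limma adjusted p = 0.00058 and 0.00304), and both of these calls were lost after normexp (limma adjusted p = 0.0614 and 0.0954).

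Dusp10, which acts on JNK and p38, fell at 2 hours on both of its probes. ILMN_2678724 read 560.1 and 646 in untreated cells, 326.6 and 398.9 at 2 hours, and 624.2 and 658.6 at 2 days. The 2 hour arrays lay below all others, and the 2 day arrays overlapped the untreated ones. Its 2 hour mean was 362.8 ± 51.1 against 603 ± 60.8 untreated, and the level fell by 40% (-0.74, SE 0.11, limma adjusted p = 0.000156). ILMN_2818964 read 466 and 527.6 in untreated cells, 340.4 and 279.8 at 2 hours, and 435.9 and 387.6 at 2 days, and fell by 37.8% at 2 hours (-0.68, SE 0.11, limma adjusted p = 0.000447). After normexp both falls were larger, -0.92 and -0.90, and not called (limma adjusted p = 0.146 and 0.172). At 2 days the probes gave 0.09 (95% interval -0.13 to 0.32) and -0.27 (95% interval -0.50 to -0.04) against untreated cells, neither of them called. Against 2 hours both were higher at 2 days, by 0.83 and 0.41 (limma adjusted p = 8.54e-06 and 0.0139). The smaller of these differences lost its call when replicate 2 of the 2 hour group (0.27) or replicate 1 of the 2 day group (0.33) was left out, and after normexp (0.56).

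Dusp16, a phosphatase of JNK and p38 that moves between cytoplasm and nucleus, has 4 probes, and the annotation places a pair of them on each of 2 RefSeq transcripts. On the first transcript, ILMN_2754148 read 4734 and 4135 in untreated cells, 4105 and 4076 at 2 hours, and 3612 and 3488 at 2 days. Both 2 day arrays were below all others, and the probe fell by 19.8% at 2 days, which was barely called (-0.32, SE 0.10, limma adjusted p = 0.0451). That call was lost without any 1 of 5 arrays (limma adjusted p from 0.0549 to 0.399) and under 4 other settings, as given in the closing section. Its neighbour ILMN_2467596 gave a like change that was not called (-0.29, limma adjusted p = 0.0765). The probes of the second transcript, ILMN_3112011 and ILMN_3037810, changed by -0.05 and -0.07 at 2 days (95% intervals -0.27 to 0.17 and -0.27 to 0.14). Whether the transcripts differ in their change was not tested. At 2 hours the 4 probes changed by -0.11 to 0.20, and none was called.

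**Figure D3:**
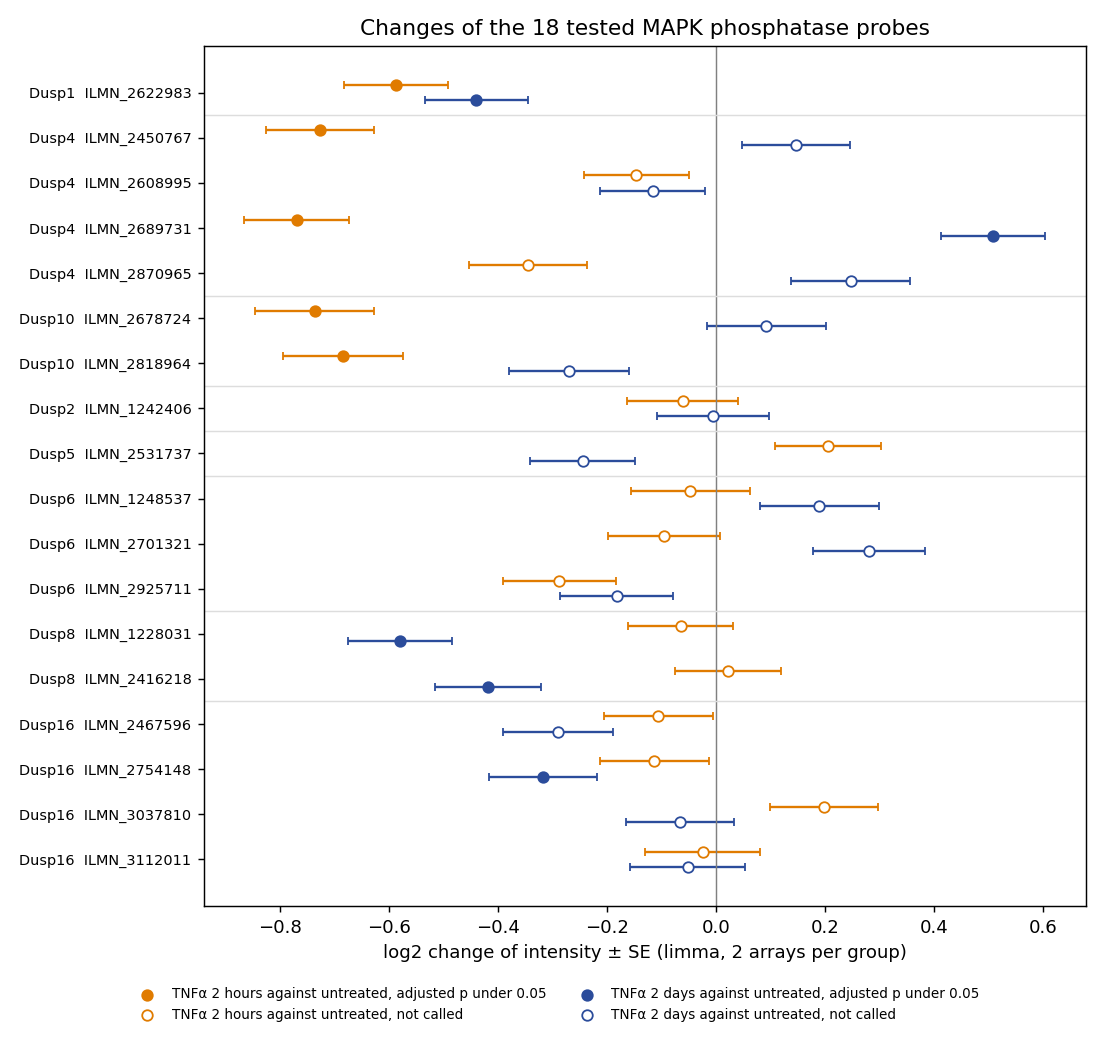
Log2 change of intensity against untreated cells for the 18 tested MAPK phosphatase probes, with TNFα for 2 hours and TNFα for 2 days as separate points and the SE of the limma fit (2 arrays per group) as bars. Filled points passed an adjusted p under 0.05; Dusp1, Dusp10 and a pair of Dusp4 probes stand left of 0 at 2 hours, and both Dusp8 probes at 2 days.

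Of 20 tested transcription factors and early genes regulated by MAPKs, 4 were higher on at least 1 probe and 0 lower at 2 hours by limma (6 and 1 at an unadjusted p under 0.05). They were Ier3, an early response gene (1.55, SE 0.10), the AP-1 subunit Junb (1.50, SE 0.12), the zinc finger factor Egr1 (1.20, SE 0.11) and the AP-1 subunit Fosl2. A further Junb probe, which read near the array median, gave -0.10. The other 16 genes were not called, among them Fos (0.03), Atf3 (0.18), Myc (0.03) and Jun (-0.34). At 2 days 4 were higher, with Ier3 at 0.89, and 2 were lower, the stress factor Atf3 (-0.92) and the AP-1 subunit Fos (-0.62). Against 2 hours 8 were lower at 2 days, with Egr1 at -1.32, Atf3 at -1.10 and Junb at -1.05, and 1 was higher. The median change over the 33 probes of this list was 0.01 at 2 hours and -0.05 at 2 days.

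Kinases of the pathway were counted by gene, beside 2.87% of all named genes called at 2 hours, 13.6% at 2 days and 16.5% between the times. At 2 hours 0 of 9 MAP kinases and 0 of 6 MAP kinase kinases were called by limma (1 and 0 genes at an unadjusted p under 0.05), and 1 of 20 upstream kinases and adaptors rose, Map3k1, which feeds the JNK branch (0.62, SE 0.10, and 0.41 on its other probe). At 2 days Mapk11, a p38 kinase, rose on 1 of its probes (0.35). Its other probe, which read near the array median, gave -0.09. Of the MAP kinase kinases 0 were called by limma at 2 days (1 at an unadjusted p under 0.05). Map3k6 fell on 1 of its probes at 2 days (-0.40, against -0.15 on the other). Between the times Map2k3, a kinase of p38, was lower at 2 days than at 2 hours (-0.37), the only MAP kinase kinase called, and Mapk11 was the only MAP kinase called (0.53, higher). Of the upstream kinases and adaptors 3 were lower, Map3k6 (-0.57), Map3k1 (-0.48) and Map3k5 (-0.45 on 1 of its 3 probes), and 1 was higher, Tab1 (0.36 on 1 of its 3 probes). Of 6 tested MAPK-activated kinases 1 was lower at both times, Mknk2, which phosphorylates a translation initiation factor (-0.38 at 2 hours and -0.44 at 2 days). Of 8 ERK feedback genes and scaffolds 0 were called by limma at 2 hours (1 at an unadjusted p under 0.05). Errfi1, an inhibitor of the epidermal growth factor receptor, fell at 2 days (-0.48), a gene that the glucocorticoid-inducible list also holds. Apart from Errfi1 and Spred1, the tested genes of this list read near the array median, where changes are understated.

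Other phosphatases were counted by gene, beside 2.87% of all named genes called at 2 hours, 13.6% at 2 days and 16.5% between the times. At the 2 hour share, lists this short would hold few or no called genes. Of 12 atypical dual-specificity phosphatases, which lack the MAPK-binding domain, 0 were called by limma in any comparison (1 in each at an unadjusted p under 0.05), and their median change was 0.05 at 2 hours and 0.01 at 2 days. The tested probes of Dusp12, Dusp13, Dusp14, Dusp15 and Dusp27 all read near the array median, where changes are understated. Dusp7, an ERK phosphatase close to Dusp6, read 258.5 and 314.8 in untreated cells, 299.3 and 315.9 at 2 hours, and 406.6 and 335.5 at 2 days. It was called higher at 2 days (0.37, SE 0.11, limma adjusted p = 0.0368), and Dusp9 did not pass the filter. Of 8 phosphatases of other families that act on MAPKs, Ppm1b fell at 2 days (-0.51, and -0.33 to -0.08 on its other probes), and 0 were called by limma at 2 hours (1 at an unadjusted p under 0.05).

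**Figure D4:**
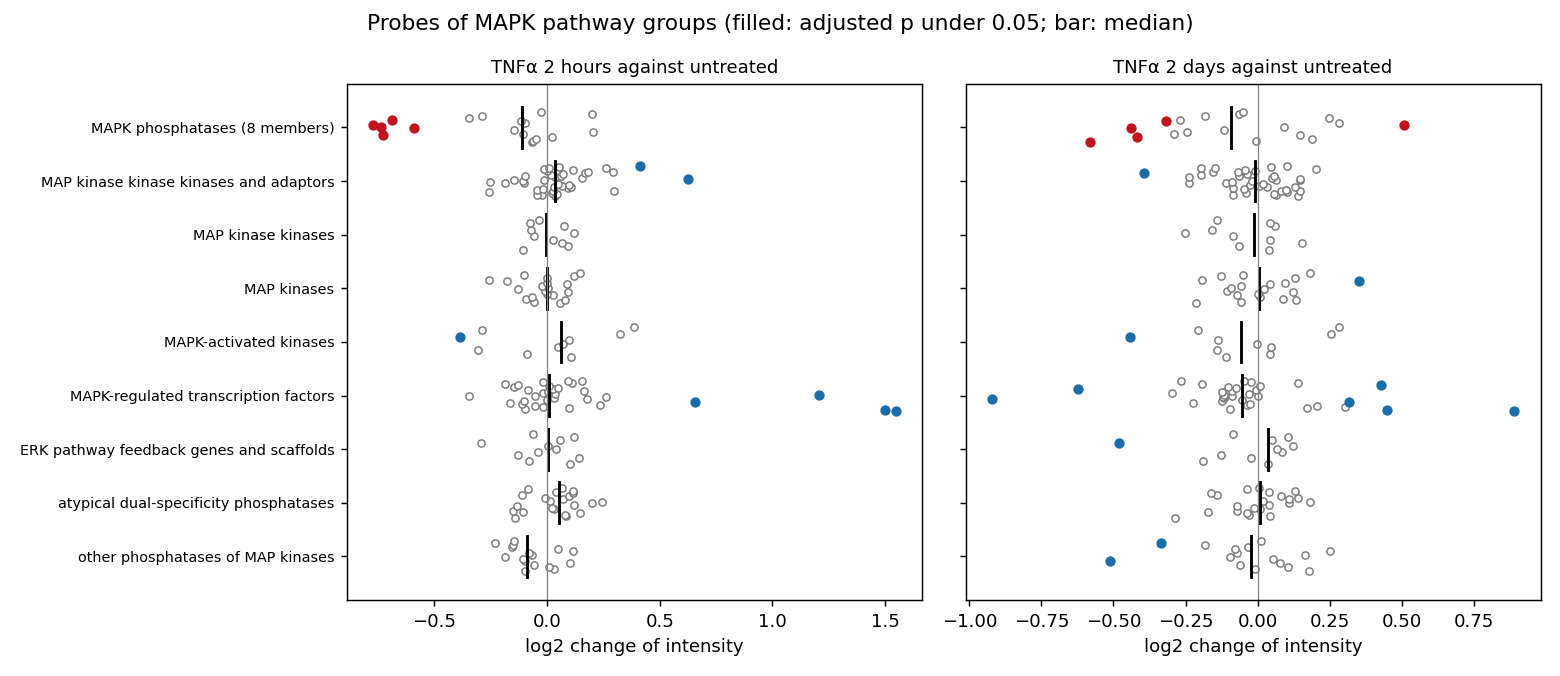
Log2 change of intensity of every tested probe of the 8 MAPK phosphatases and of 8 other MAPK pathway groups, at 2 hours (left) and at 2 days (right) of TNFα against untreated cells. Each point is a probe, filled where the adjusted p was under 0.05, and black bars are medians; the 5 called phosphatase probes at 2 hours lie left of 0 while the 4 called probes of MAPK-regulated transcription factors lie right of it.

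For each phosphatase with a called probe, the genes with the most similar pair of changes (2 hours and 2 days against untreated) were found among 3375 to 3377 other probes called in some comparison, by Euclidean distance on the log2 scale. Nearest to Dusp1 were Gadd45g (distance 0.0529), Tob1 (0.0738) and Herpud1 (0.0825). Nearest to the first Dusp10 probe was a probe of Dusp4 (0.0559), followed by Hhex (0.111) and Masp1 (0.138). Nearest to the brightest Dusp4 probe were Zfp219 (0.262), Tsc22d1 (0.317) and Klhl21 (0.329). Dusp8 lay next to Amy1 (0.0172), Vtn (0.0175) and Ndufb10 (0.0206), and Dusp5 next to Cblc (0.0112), Ddx3x (0.0119) and Mgll (0.0172). Small distances are more frequent where many genes lie, so they are not comparable between members. The brightest probes of Dusp6 and Dusp16 were not called themselves, and their nearest genes were Wnk1 (0.101), Cdk20 (0.102) and Cldn23 (0.108), and G3bp2 (0.187), Prkcz (0.197) and Ncaph2 (0.197).

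Summed markers of hepatocytes, macrophages, stellate cells and bile ducts differed from untreated cells at 2 days. At 2 hours the bile duct sums were higher than in untreated cells and the macrophage sums slightly lower. Endothelial sums overlapped between the groups. The part of these markers in the 2 day changes of the phosphatases was not tested. Of 9 tested hepatocyte markers 0 were called by limma at 2 hours (2 at an unadjusted p under 0.05) and 6 were lower at 2 days, with the urea cycle enzyme Cps1 at -3.31. Among those not called was Alb, whose tested probe read near the array median (144.6 to 174.5) and so says little about that gene. Summed over 10 markers, of which Tat did not pass the filter, the intensity was 104839 to 105399 at 2 hours and 61676 to 64309 at 2 days, against 102952 to 108229 in untreated cells. Of 8 tested macrophage markers 3 were higher at 2 days, all complement C1q chains (C1qb 0.75), while Clec4f and Cd5l, which define Kupffer cells, and Itgam did not pass the filter. The summed macrophage markers were 1743 to 1751 at 2 hours and 1949 to 2150 at 2 days, against 1756 to 1791 untreated. This sum includes probes that read near the array median, such as those of Csf1r and Adgre1. Endothelial markers summed to 1842 to 2017 at 2 hours and 1793 to 1847 at 2 days, against 1771 to 1923 untreated, with 1 of 9 higher and 1 lower at 2 days. Stellate cell markers summed to 3038 to 3244 at 2 hours and 3733 to 4399 at 2 days, against 2994 to 3463 untreated. Lrat, Col3a1 and Pdgfrb were below the filter. The 2 day difference in this sum lay mostly in Acta2, whose brightest probe read 2107 and 2906, against 1343 and 1812 untreated. That probe was called higher at 2 days (0.67), and the other Acta2 probes gave 0.13 to 0.42. Reln was called higher at 2 hours (0.43) and lower at 2 days (-0.82), with 0.10 and 0.14 on its other probe, which read near the array median. Of 3 tested bile duct markers Sox9 was higher at both times (0.79 and 1.78 on its brighter probe), Krt19 (0.19 at 2 days) and Krt7 (0.09) were not called, and the list summed to 2051 to 2084 at 2 hours and 3435 to 3696 at 2 days, against 1446 to 1447 untreated, with Epcam and Cftr below the filter. The difference in this sum lay mostly in Sox9, whose brighter probe read 2796 and 3027 at 2 days, against 852.3 and 842.1 untreated.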

How the data were processed

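Total RNA of 6 samples was labelled with biotin and hybridised to Illumina mouse arrays, per the labels' protocols. The deposited table holds 1 linear intensity per probe and array, and background remains in these values (the lowest was 96.54). The sorted columns differed by at most 0.332%, a pattern that quantile normalization leaves and the labels do not mention. Software for scanning and normalization: not given in the sources used here. Detection values were not used.

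Probes were named through the platform's annotation (34885 with 1 symbol, 18 with several, 10378 not listed), and 34807 symbols were updated by gene identifier with a RefSeq table. Intensities were converted to log2. Probes with at least 2 arrays above that array's 50th percentile were fitted, 26272 in all, with a mean per group over all 6 arrays in limma 3.58.1 (R 4.3.3). Residual degrees of freedom were 3 and prior degrees of freedom 19.14, so the spread behind each p-value is mostly that shared over probes. The number of arrays limits the precision. The fit was tested on simulated data.

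The phosphatases, gene lists, motifs and tests were chosen with earlier results of these data known. The naming rule covered every probe of the 8 phosphatases, up to 3 called genes per list and comparison, and the 3 nearest genes by change. Arrays of a group correlated at 0.995 over tested probes, while between groups the range was 0.983 to 0.992. The deviations of arrays with equal replicate numbers correlated at -0.123, -0.065 and 0.0156 between groups over all tested probes. That shows no sign of pairing but cannot exclude it, since many of these probes lie near background. The alternatives were normexp with an offset of 16, cyclic loess, median centring, an added offset of 16, other filters, 1 probe per gene, other variance models, the compared groups alone, a replicate block, a stricter threshold and leaving out each array.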

Additional observations from a re-analysis of the deposited data

Results flagged for a closer look

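The change against untreated cells differed between 2 days and 2 hours for 9 phosphatase probes, by the limma contrast of the 2 times, which tests that difference itself. Because both changes share the same untreated arrays, its size rests on the 2 hour and 2 day arrays alone. The Dusp4 probes ILMN_2689731, ILMN_2450767 and ILMN_2870965 were higher at 2 days by 1.28, 0.87 and 0.59 on the log2 scale. The Dusp10 probes ILMN_2678724 and ILMN_2818964 were higher by 0.83 and 0.41, and the Dusp6 probe ILMN_2701321 by 0.38. That Dusp6 probe passed the filter through the 2 day arrays alone, so its difference is a description and not a test, and 8 probes remain without it. Lower at 2 days were the Dusp8 probes ILMN_1228031 and ILMN_2416218 (-0.52 and -0.44) and the Dusp5 probe (-0.45). No group held enough arrays for a check of single outlying arrays.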

How the results depend on the processing

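No called change of a phosphatase probe turned its direction under any alternative. Over all single-array omissions, 312 of the phosphatase changes kept their side of the threshold, 11 lost a call and 1 gained one. Under the other alternatives, without the stricter threshold, these were 539, 15 and 1. Normexp background correction accounted for 12 of these 15 losses: it left 2 phosphatase probes called at 2 hours (both Dusp4), 1 at 2 days (Dusp8) and 4 between the times (3 of Dusp4 and 1 of Dusp10), and 112, 725 and 965 of all probes, of which 88.4% were higher at 2 hours against 65.5% without it. The cause was not tested. With 1 probe per gene, where 8 phosphatase probes remain, 3, 3 and 4 were called (37.5%, 37.5% and 50%), against 2.82%, 12.7% and 15.3% of 13438 probes. At an adjusted p under 0.01, 300, 1559 and 1910 of all probes were called, against 496, 2529 and 3043. Of the phosphatase probes 5, 4 and 7 were then called, against 5, 5 and 9. Leaving out 1 array gave 281 to 518 calls at 2 hours, 1637 to 2449 at 2 days and 1939 to 3181 between the times; the lowest came without replicate 2 of the 2 hour group (281 and 1939) and without untreated replicate 1 (1637). At 2 hours 309 were called without replicate 1 of that group, at 2 days 1651 without replicate 2 of that group, and between the times 1994 without it. Of the phosphatase probes, 5 were called at 2 hours whichever array was left out, 3 to 6 were called at 2 days (3 without replicate 2 of that group) and 7 to 9 between the times. The 2 day fall of Dusp16 on ILMN_2754148 was not called after normexp (-0.33), with a trended variance, with the 2 day and untreated groups alone or with the replicate block (limma adjusted p = 0.331, 0.0614, 0.0549 and 0.0561), and ILMN_2467596 was called with cyclic loess (-0.32) and without untreated replicate 2 (-0.40). With the replicate block 438, 2298 and 2843 probes were called, 5, 4 and 9 of them phosphatase probes. The labels do not say whether equal replicate numbers belong together. Dim probes, such as those of Dusp2, are limited by the background left in the intensities.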
